A study of Saccharomyces cerevisiae with 12 samples.

Results

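The first hour of wild-type budding yeast in a minimal lactate medium was measured across all genes, by comparing 2 wild-type libraries taken 1 h after the switch with 2 taken before it, out of 12 libraries in the series. Genes entered where their normalised read count was at least 10 in 2 or more of the 12 libraries, and 6546 of 6685 listed genes did. The cells were Saccharomyces cerevisiae CEN.PK, a laboratory strain background, of mating type MATa. The cells at 1 h had been washed and placed in SL, which held 0.17% yeast nitrogen base, 0.5% ammonium sulfate and 2% lactate but no amino acids. The cells before the switch had grown in YPL, a rich broth of 1% yeast extract and 2% peptone with 2% lactate, to an A600 of 1.0. Lactate was thus the carbon source on both sides of the switch. The series also holds wild type after 3 h in SL, and a cho2Δ strain, which lacks a phosphatidylethanolamine methyltransferase, in YPL and after 1 h and 3 h in SL, with 2 libraries a group. No culture moved back into YPL was sampled, so loss of the broth, washing and time cannot be told apart. The series text calls the 2 libraries of a group biological replicates without saying how they were grown. The p-values cover the spread between libraries of a group, estimated jointly over all 6 groups of the series.

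Yeast that loses external amino acids must make them from ammonium, sulfate and carbon intermediates. Sulfur reaches methionine and cysteine through sulfate uptake, activation and reduction, a pathway switched on by the activator Met4, which sits on DNA with Cbf1 or with Met31 and Met32. Other amino acid pathways are under general control through Gcn4, whose protein level is set mainly by translation of its mRNA. The TORC1 kinase couples nitrogen supply to ribosome production, and Msn2 and Msn4 drive a general stress programme. Genes for amino acid permeases are induced by outside amino acids through the SPS sensor at the plasma membrane.

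Poly-A RNA was sequenced, and values are read counts divided by 1 size factor a library. The wild-type SL 1 h libraries held 9169832 and 11120774 reads over genes, and the wild-type YPL libraries held 9479052 and 9529998, while the whole series ran from 3166868 to 12489334. Fold changes are log2 differences of (value + 1) from limma, with the standard error (SE) after ±, and a gene rose or fell where the Benjamini-Hochberg adjusted p over all 6546 genes was under 0.05. The mating type label was checked against markers. STE2, the alpha-factor receptor of a cells, had 1514 and 1269 in SL 1 h and 1491 and 1549 in YPL, whereas MF(ALPHA)1, an alpha-factor gene, had 7.23 and 5.13 in SL 1 h and 3.03 and 6.06 in YPL. Of 7 a-specific genes 3 rose and none fell (3 fell under TMM scaling and 4 with edgeR and TMM), and of 4 alpha-specific genes 2 rose. These were SAG1, the alpha agglutinin gene, with 900 and 1023 in SL 1 h and 407 and 441 in YPL, and STE3, the a-factor receptor gene, with 156 and 163 in SL 1 h and 94.0 and 93.0 in YPL. Alpha-cell mRNAs were thus not at 0 in cells labelled MATa, and their part in the results was not tested.

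Within 1 h, 2209 genes rose, which is 33.7% of the genes tested, and 1557 fell, which is 23.8%. Of these, 850 rose at least 2-fold (13.0%) and 954 fell at least 2-fold (14.6%). At least 8-fold, 80 rose and 123 fell. The median log2 difference over all genes was 0.18. Scaling by trimmed means (TMM) in place of the deposited size factors moved all differences by -0.15 and gave 1985 rises and 2076 falls, so the rising share of calls was 58.7% with the deposited scaling and 48.9% with TMM. The large changes below are far beyond that shift, and the balance of small ones is not settled by these data.

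The most abundant messages were largely exchanged. The 10 genes with the highest mean value in SL 1 h were, in falling order, MET17, GRE1, TDH3, MET6, SED1, MET3, MET10, FBA1, HSP12 and SSA1. In YPL they were TEF1, TEF2, TDH3, FBA1, ATP2, PYC1, ALD4, PCK1, JEN1 and CIT1. These are values per gene, not per length. In YPL the top of the list thus held translation elongation, lactate uptake (JEN1), gluconeogenesis (PYC1 and PCK1) and mitochondrial energy genes, and in SL 1 h it held sulfur and stress genes. TDH3 and FBA1, which encode glycolytic enzymes that also serve gluconeogenesis, were on both. TEF1 with TEF2, TDH3 with TDH2 and SSA1 with SSA2 are near-identical copies whose reads can be shared. The top 10 took 7.89% and 8.03% of reads in the SL 1 h libraries and 5.80% and 5.59% in the YPL libraries.

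**Figure D1:**
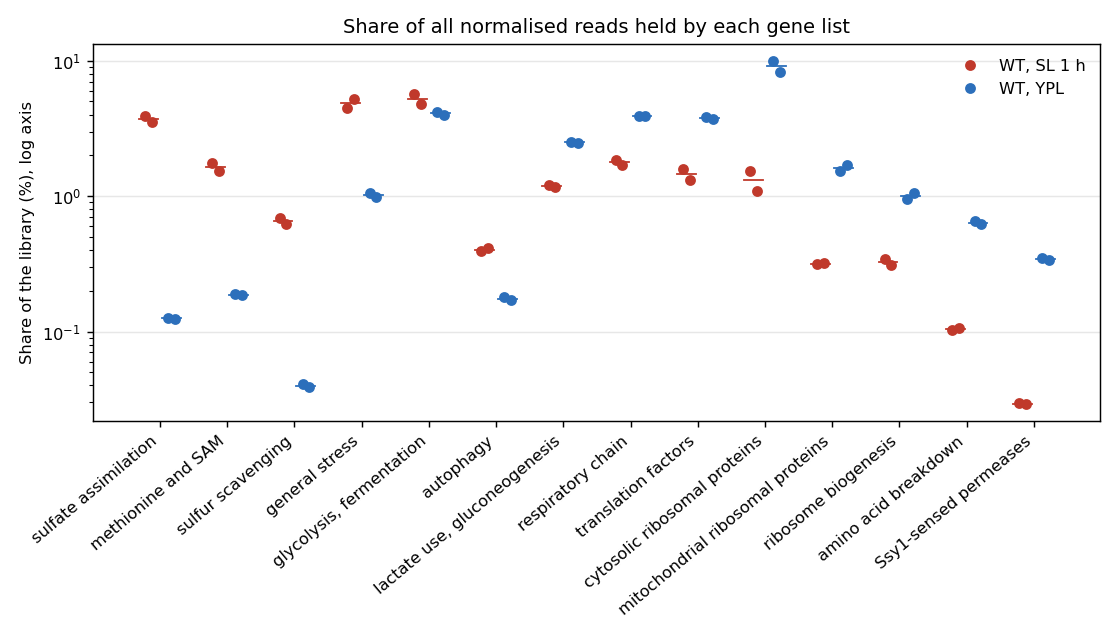
Share of reads over genes (percent, log axis) for gene lists in each wild-type library, with SL 1 h in red and YPL in blue, and a bar at each group's mean. Sulfate assimilation lies at 3.92% and 3.55% in SL 1 h and at 0.126% and 0.125% in YPL, and cytosolic ribosomal proteins lie at 1.53% and 1.10% in SL 1 h and at 9.93% and 8.20% in YPL.

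Gene lists are given below by how many members rose and fell, beside the 33.7% and 23.8% over all genes. Shares of reads by list are per library, and 2 against 2 libraries cannot go below an exact two-sided permutation p of 0.33.

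The sulfur pathway gave the strongest rises. All 11 genes from sulfate uptake to sulfide rose, with a median log2 difference of 5.38, and their share of reads was 3.92% and 3.55% in SL 1 h against 0.126% and 0.125% in YPL. At the entrance, the sulfate permease SUL1 had 38276 and 30526 in SL 1 h and 5427 and 5642 in YPL, and its paralog SUL2 had 4060.1 and 3954 in SL 1 h and 359.7 and 432 in YPL. SUL1 was already the more abundant of these permeases in rich broth, and its rise of 2.63 ± 0.17 was the smallest of the 11. MET3, the ATP sulfurylase that activates sulfate, had 61704 and 63809 in SL 1 h and 333 and 378 in YPL, a log2 difference of 7.46 ± 0.18 (adjusted p = 7.3e-20). MET14, the kinase that follows, rose by 5.42 ± 0.19, and MET16, which reduces the activated sulfate to sulfite, by 6.65 ± 0.21. The sulfite reductase subunits MET5 and MET10 rose by 5.38 ± 0.18 and 6.27 ± 0.17. MET1 and MET8, which make the sirohaem that this reductase carries, rose by 4.41 ± 0.17 and 3.66 ± 0.21. MET17, which joins sulfide to O-acetylhomoserine, had 115879.5 and 99097 in SL 1 h and 2253 and 2003 in YPL, and its coding region overlaps another annotated frame. In each of the 11 genes both SL 1 h libraries lay above both YPL libraries.

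The letters CACGTG, the core bound by Cbf1, were found within 500 bases before the start codon of 10 of these 11 genes (90.9%), against 6.28% of 5907 promoters searched in the RefSeq R64 genome of the S288C strain. Both strands were searched and the word reads the same on both. The following 30-base windows are shown because 5 of the sulfate genes and MET28, a regulator described below, rose together, with the word in capitals and each read on the gene's own strand.
MET3: gaccagaaaagtCACGTGtaattttgtaac
MET10: agcttatagaagCACGTGaccacaattcac
MET14: tgccactaatttCACGTGatcaatatattt
MET16: ttatcatcatttCACGTGgctagtaaaaga
MET17: aatggcaaatggCACGTGaagctgtcgata
MET28: gggtactgagtgCACGTGacttattttttt
The MET3 window is chrX:455867-455896 on the plus strand, 354 bases of sequence separating the word from the start codon. The others are chrVI:213069-213098 (plus) for MET10, chrXI:439596-439625 (minus) for MET14, chrXVI:877793-877822 (minus) for MET16, chrXII:732230-732259 (plus) for MET17 and chrIX:384321-384350 (minus) for MET28. Bases between word and start codon numbered 225, 222, 172, 294 and 213 in that order. Among all genes that rose at least 8-fold and had a promoter window, 37.7% held the word. Among genes that fell at least 8-fold, 4.59% held it. In the other sulfur lists described below the word was less evenly placed. Of the regulators it was found before MET4, MET28, MET30, MET32 and CBF1. Of the scavenging genes it was found before MUP3 alone, though all 8 rose. Of the methionine list it was found before MET2, MET6, SAM2 and SAH1, and SAH1 fell. The letters CTGTGG, the core of the Met31 and Met32 element, were found in 44.9% of the 8-fold rises, against 13.2% of all promoters. A match is a description of letters and does not show binding.

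Uptake of organic sulfur rose as a whole. All 8 genes of the scavenging list rose, with a median of 4.15, and their share of reads was 0.694% and 0.619% in SL 1 h against 0.041% and 0.039% in YPL. AGP3, an amino acid permease, had 9042 and 7954 in SL 1 h and 257 and 248 in YPL. MUP3 and MUP1, methionine permeases, rose by 4.83 ± 0.19 and 2.76 ± 0.18. MMP1, which takes up S-methylmethionine, rose by 4.76 ± 0.17, and YCT1, a cysteine transporter, by 3.66 ± 0.22. BDS1, a sulfatase, had 12673 and 13065 in SL 1 h and 502 and 527 in YPL, and JLP1, a sulfonate dioxygenase, had 1527 and 1070.2 in SL 1 h and 122 and 96.0 in YPL. The stated recipe of SL names ammonium sulfate and lists no methionine.

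Of 13 genes of methionine and S-adenosylmethionine metabolism, 9 rose and 2 fell. MET6, the methionine synthase, had 97595 and 85321 in SL 1 h and 908 and 860.0 in YPL, a rise of 6.69 ± 0.17. MET2, which acetylates homoserine, rose by 4.31 ± 0.18, and MET13, which supplies the methyl group, by 2.94 ± 0.17. MET12, the other methylenetetrahydrofolate reductase gene, had 1199 and 1132 in SL 1 h and 1407 and 1426 in YPL and did not pass (adjusted p = 0.162). Of the S-adenosylmethionine synthetases, SAM2 had 20877 and 14873 in SL 1 h and 1760.3 and 1473 in YPL, and SAM1 had 10093 and 9425 in SL 1 h and 2029 and 2249 in YPL. Per kilobase of coding sequence, the mean level of SAM2 was 15476 in SL 1 h and 1400 in YPL, and that of SAM1 was 8493 in SL 1 h and 1861 in YPL, so SAM2 stood above SAM1 after the switch and below it before. SAH1, which hydrolyses S-adenosylhomocysteine, fell by 0.80 on the log2 scale, to 3679 and 2767 in SL 1 h against 5677 and 5457 in YPL. SAM4, a homocysteine methyltransferase, fell by 1.40, whereas its paralog MHT1, which uses S-methylmethionine, rose by 2.22 ± 0.19.

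The path between homocysteine and cysteine rose on both of its arms. STR3, which takes cysteine towards homocysteine, had 5439.9 and 5344 in SL 1 h and 83.9 and 72.8 in YPL, and its partner STR2 rose by 0.83 ± 0.19. CYS4 and CYS3, which run in the other direction, rose by 1.65 ± 0.20 and 3.12 ± 0.17. GSH1, the first enzyme of glutathione synthesis, had 7424 and 8904 in SL 1 h and 862 and 1163 in YPL, while GSH2, the second, had 1888 and 1968 in SL 1 h and 2179.7 and 2572 in YPL and did not pass. DUG3 and OPT1, of glutathione breakdown and uptake, rose by 3.81 and 1.82. In all, 6 of 9 genes of this list rose and 1, DUG1, fell (2 fell under TMM scaling).

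The 6 regulators of the sulfur genes rose as well, by very different amounts. MET28 had 4517 and 4206 in SL 1 h and 81.9 and 82.9 in YPL, and MET32 had 4247 and 4228 in SL 1 h and 189 and 176 in YPL. MET30, the F-box protein that holds Met4 in check, rose by 2.40 ± 0.19 and MET31 by 1.88 ± 0.21. MET4 itself had 1995 and 2646 in SL 1 h and 1085 and 1542 in YPL, a rise of 0.83 ± 0.20, and CBF1 rose by 0.58 ± 0.21 (adjusted p = 0.020). The call for CBF1 did not hold under TMM scaling, where 5 of the 6 rose, nor without WT SL 1 h replicate 2 or WT YPL replicate 1. The fitted differences of MET28, MET31, MET32 and MET30 were thus larger than that of MET4, and that of CBF1 was smaller.

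**Figure D2:**
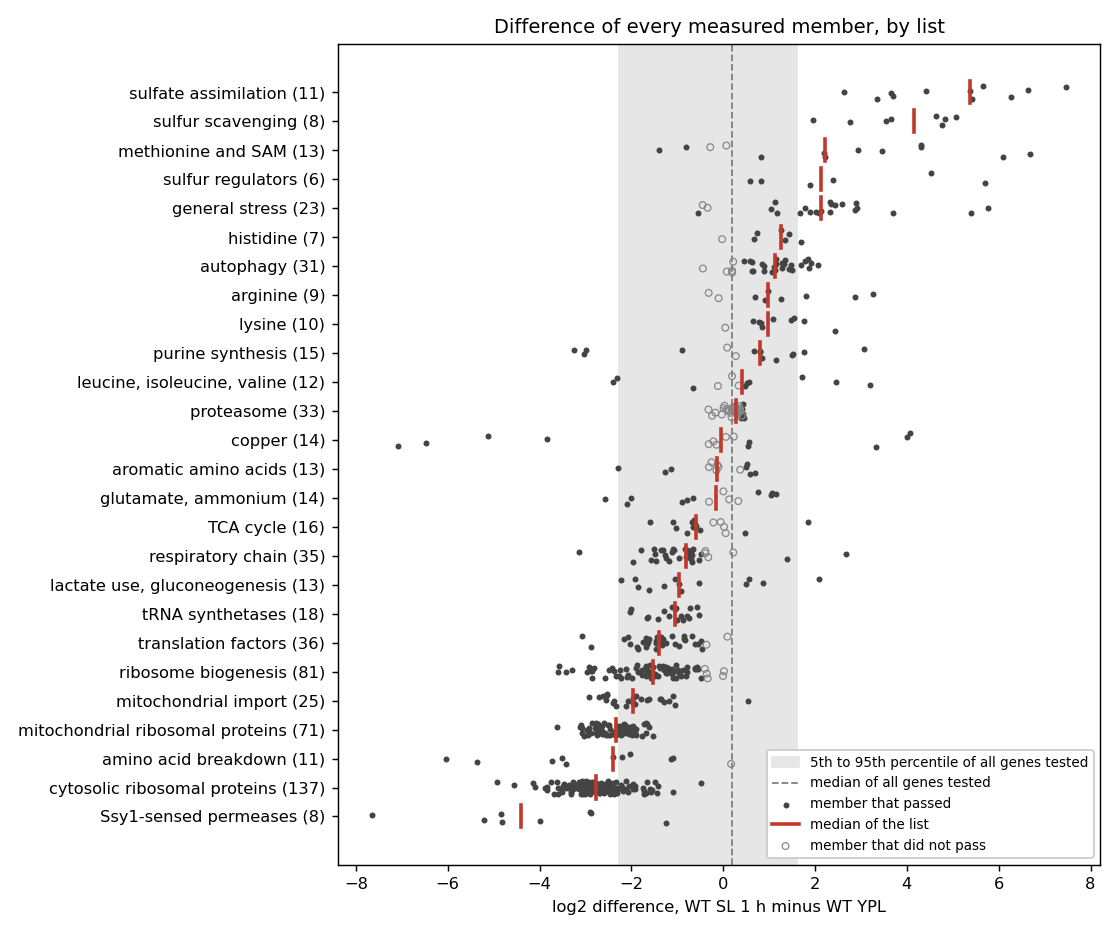
Log2 difference of WT SL 1 h minus WT YPL for each member of selected gene lists, 1 point a gene, with filled points for genes that passed, open points for those that did not, a red bar at each list's median a dashed line at the median over all genes, 0.18, and a grey band over the percentile range of all genes that the legend gives. The sulfate and scavenging lists lie far to the right with medians of 5.38 and 4.15, and the permeases under the SPS sensor, which Ssy1 heads, and the cytosolic ribosomal proteins lie to the left with medians of -4.41 and -2.78.

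Outside sulfur, most genes of histidine, arginine and lysine synthesis rose. Of the histidine genes 6 of 7 rose, of the arginine genes 7 of 9, and of the lysine genes 9 of 10, and none in these 3 lists fell, though 1 arginine gene did under TMM scaling. HIS4, which acts at several steps of histidine synthesis, had 3315 and 2711 in SL 1 h and 974 and 888 in YPL, a rise of 1.69 ± 0.18. HIS5 rose by 1.42 ± 0.18, while HIS2 had 798 and 799 in SL 1 h and 780.1 and 844 in YPL, so that its libraries overlapped. In arginine synthesis ARG3, ornithine carbamoyltransferase, had 1487 and 1287 in SL 1 h and 151 and 136 in YPL. ARG56, which encodes the early kinase and reductase and is spelled as RefSeq gives it, rose by 2.88 ± 0.17 and CPA1 by 1.81 ± 0.22. ARG1, argininosuccinate synthetase, had 941 and 757 in SL 1 h and 907 and 901 in YPL and did not pass. LYS1, the last enzyme of lysine synthesis, rose by 2.43 ± 0.17, and LYS9, the step before it, by 1.76 ± 0.20. The homocitrate synthase genes LYS20 and LYS21, which rose by 1.09 ± 0.17 and 0.78 ± 0.16, are near-identical copies that can share reads.

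In leucine synthesis the largest rises were LEU1, with 15932 and 16916 in SL 1 h and 1659 and 1913 in YPL, and LEU2, with 5209.6 and 4617 in SL 1 h and 882 and 911 in YPL. OAC1, a mitochondrial carrier that exports the leucine precursor, rose by 2.77 ± 0.18. Of 12 branched-chain genes 6 rose and 3 fell, and the falls were LEU9, BAT2 and ILV6, the last not without WT SL 1 h replicate 1 or WT YPL replicate 2. SER33, which opens serine synthesis, had 23493 and 17953 in SL 1 h and 1197 and 993 in YPL, whereas its paralog SER3 had 649.7 and 572 in SL 1 h and 449.7 and 479 in YPL and did not pass (adjusted p = 0.0723). HOM3, the aspartate kinase at the head of threonine and methionine synthesis, rose by 3.72 ± 0.17 and HOM6 by 1.84 ± 0.22, while THR1, the first step towards threonine alone, fell by 0.85.

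The aromatic and the asparagine branches did not follow. Of 13 aromatic genes 4 rose, by at most 0.69, and 3 fell. ARO4, one of the DAHP synthases that open the pathway, fell by 2.30, and its paralog ARO3 had 1186 and 1117 in SL 1 h and 1336 and 1409.8 in YPL and did not pass. Without WT SL 1 h replicate 1 there were 2 aromatic rises, and with DESeq2 there were 6 falls. The asparagine synthetases both fell, with ASN1 at 1275 and 1313 in SL 1 h against 5152 and 5950.4 in YPL and ASN2 at 1695 and 1637 in SL 1 h against 6189 and 7283 in YPL. For ammonium entry, GDH3 and GLT1 rose by 1.04 ± 0.18 and 1.16 ± 0.16, GDH1 had 5204 and 3894 in SL 1 h and 3670.2 and 3497 in YPL, and GLN1 had 2977 and 2999 in SL 1 h and 3414 and 4009 in YPL. Neither GDH1 nor GLN1 passed. GDH2, which runs in the direction of glutamate breakdown, fell to 2521 and 2116 in SL 1 h, against 17020.3 and 11044 in YPL. GCN4 mRNA had 13443 and 10660.2 in SL 1 h and 16453 and 14288 in YPL and did not pass (-0.36, adjusted p = 0.0793), though it fell by 0.51 under TMM scaling (adjusted p = 0.0155). It also passed as a fall with DESeq2, with quantile normalisation and without WT SL 1 h replicate 1.

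**Figure D3:**
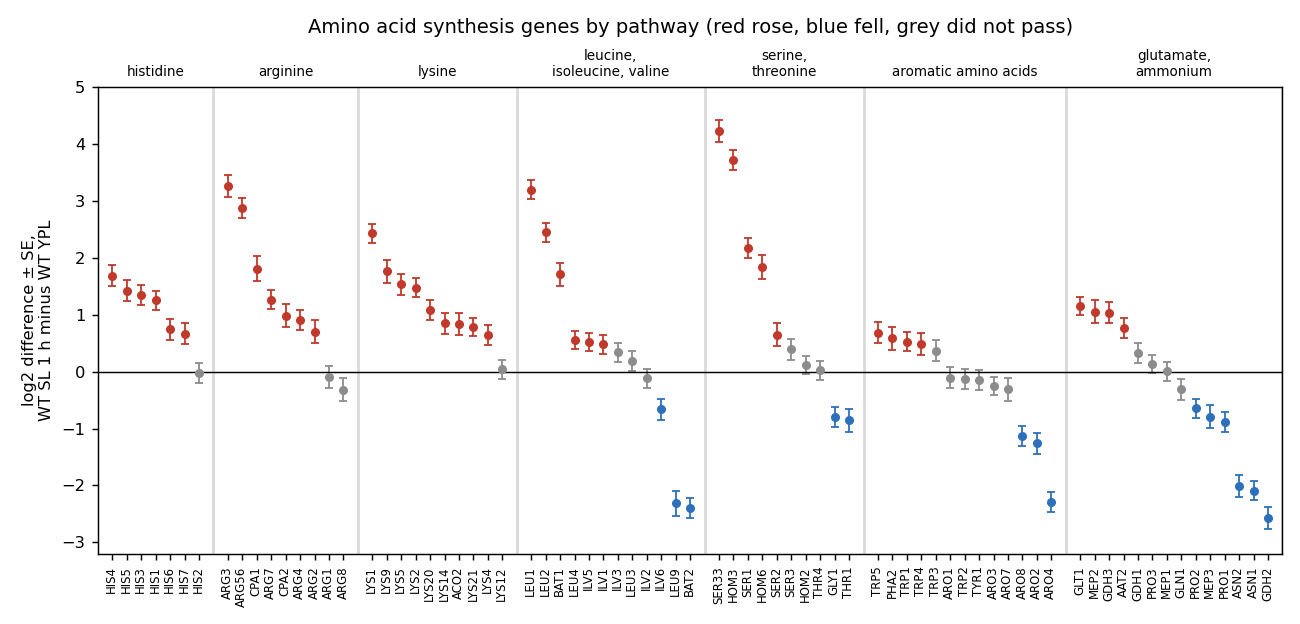
Log2 difference of WT SL 1 h minus WT YPL for single genes of amino acid synthesis grouped by pathway, 1 point a gene with its SE as a bar, red where it rose, blue where it fell and grey where it did not pass. With the deposited scaling no histidine, arginine or lysine gene is blue (1 arginine gene fell under TMM scaling), SER33 lies highest at 4.23, and ASN2, ASN1 and GDH2 lie lowest in their group at -2.01, -2.10 and -2.57.

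The letters TGACTC, the core of the Gcn4 element, were searched on both strands in the same windows. They were found before 9 of 9 arginine genes, 6 of 7 histidine genes (85.7%) and 75.0% of the branched-chain genes, against 12.7% of all promoters. They were also found before 8 of 14 genes of the glutamate and ammonium list (57.1%), in which 4 rose and 6 fell. The following windows are shown because genes with the same word moved in opposite directions.
HIS4: acccatgcacagTGACTCacgtttttttat
ARG3: agggtcacgtcgTGACTCatatgctttctt
ASN1: tcatgtaacattTGACTCattctgtaaact
ASN2: ttttcttagcatTGACTCatggcaagattt
GDH2: acaagtaactacGAGTCAacggcggcatca
In GDH2 the capitals are the word on the opposite strand. These lie at chrIII:68515-68544 (minus), chrX:268473-268502 (plus), chrXVI:822381-822410 (plus), chrVII:739735-739764 (plus) and chrIV:74127-74156 (minus) of R64. HIS4 and ARG3 rose, and ASN1, ASN2 and GDH2 fell, so the presence of the letters alone did not separate the directions.

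Amino acid permeases under the SPS sensor and genes of amino acid breakdown fell, in contrast to the sulfur permeases above. All 8 permeases and transporters under the SPS sensor fell, with a median of -4.41, and their share of reads was 0.030% and 0.029% in SL 1 h and 0.349% and 0.335% in YPL. PTR2, which takes up small peptides, had 20.7 and 24.8 in SL 1 h and 4676 and 4742 in YPL. TAT1 and AGP1, amino acid permeases, both fell by 4.83, and DIP5, for glutamate and aspartate, fell to 198 and 204 in SL 1 h against 8644 and 6509 in YPL. TAT2, a tryptophan permease, fell least, by 1.25. Of the 5 genes of the sensor and its effectors 4 rose, STP2 by 1.56 and PTR3 by 1.37. Of 11 genes of amino acid breakdown, 10 fell and none rose. ARO10, a decarboxylase that leads to fusel alcohols, had 176 and 185 in SL 1 h and 12465 and 11258 in YPL. CHA1, a serine and threonine deaminase, fell by 5.36 on the log2 scale. The arginase gene CAR1 fell by 3.52 and the proline oxidase gene PUT1 fell by 3.41. ARO80, the activator of the aromatic breakdown genes, did not pass at 0.17.

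Of 22 genes under nitrogen catabolite control 9 rose and 7 fell, not far from the shares over all genes. UGA3 rose by 2.59, the GATA activator GAT1 by 1.44, DAL3 by 1.34 and the urea permease DUR3 by 1.18, while the breakdown genes CAR1, PUT1, UGA1 and PUT2 fell. Of the ammonium permease genes MEP2 rose by 1.05 and MEP3 fell by 0.79.

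A stress programme rose at the same time. Of 23 general stress genes 20 rose, all by at least 2-fold, with a median of 2.12 over the list, and their share of reads was 4.51% and 5.20% in SL 1 h and 1.05% and 0.992% in YPL. CTT1, the cytosolic catalase, had 16621 and 19433 in SL 1 h and 368 and 296 in YPL. GRE1, a hydrophilin, had 93038 and 121192 in SL 1 h and 2461 and 2542 in YPL, which put it second among all genes by level after the switch. ALD3, an aldehyde dehydrogenase, rose by 3.71 ± 0.18 and GRE2 by 2.91 ± 0.18. SOD2, the mitochondrial superoxide dismutase, fell by 0.55 and was the 1 fall, which did not pass without WT SL 1 h replicate 1 or WT YPL replicate 2. Of 17 trehalose and glycogen genes 14 rose and 1 fell, but by less, with 11 rises and 3 falls under TMM scaling. NTH1, which breaks trehalose down, rose by 1.29 ± 0.17, and GSY2 and GDB1, which build and debranch glycogen, rose by 1.05 and 1.14. GLC3, the branching enzyme, fell by 0.62, though not without WT YPL replicate 1. The stress activators MSN2 and MSN4 rose by 1.09 ± 0.17 and 1.25 ± 0.18. The letters AGGGG, bound by both, were found on either strand before 87.0% of the general stress genes and 88.2% of the trehalose and glycogen genes, against 34.2% of all promoters.

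Chaperones divided by type. The inducible HSP70 genes SSA4 and SSA3 rose, with SSA4 at 8829 and 10139.6 in SL 1 h against 1062 and 1111 in YPL, and so did the exchange factor SSE2, by 2.93. The ribosome-bound HSP70 genes fell, with SSB1 at 1317 and 967 in SL 1 h against 16493 and 15808 in YPL and SSB2 at 2285 and 1848 in SL 1 h against 17597 and 16274 in YPL. SSB1 and SSB2 are near-identical copies and their separate values are uncertain. Of 25 cytosolic chaperone genes 14 rose and 5 fell, and the remaining falls, CCT4, CCT7 and TCP1, were subunits of the TRiC chaperonin. TCP1 was named after its value was seen, and the falls of TCP1 and CCT7 depended on 3 of the 4 libraries, WT SL 1 h replicate 2 and both of WT YPL. With DESeq2 9 of the list fell and with quantile normalisation 3 fell. Among 20 redox genes 11 rose and 2 fell. SRX1, sulfiredoxin, had 48.5 and 84.6 in SL 1 h and 11.1 and 14.1 in YPL, and AHP1, a peroxiredoxin, rose by 2.11 ± 0.16.

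The machinery of protein synthesis fell almost without exception. All 137 cytosolic ribosomal protein genes fell, with a median of -2.78, and their share of reads was 1.53% and 1.10% in SL 1 h and 9.93% and 8.20% in YPL. RPL3 had 1074 and 743 in SL 1 h and 23623 and 18769.8 in YPL. RPS26B fell furthest, to 164 and 138 in SL 1 h against 4513 and 4655 in YPL. Its paralog RPS26A, named here after its values were seen, fell by 2.32. Counts over some duplicated ribosomal protein genes are uncertain where copies share reads. Of 81 ribosome biogenesis genes 76 fell and none rose, led by the box C/D ribonucleoprotein genes NOP58, NOP1 and NOP56, at -3.60, -3.59 and -3.42. The letters GATGAG of the PAC element were found on either strand before 93.8% of these genes and AAAAATTT of the RRPE before 88.9%, against 28.1% and 20.7% of all promoters. Of 36 translation factor genes 34 fell. TEF1 and TEF2, near-identical copies of elongation factor 1A and the highest values in YPL, fell to 34784 and 25222 for TEF1 in SL 1 h against 84608 and 76805 in YPL. All 18 tRNA synthetase genes fell, with a median of -1.04.

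Of 24 genes of RNA polymerases I and III 12 fell and 2 rose. The falls were led by RPA49, RPA135 and RPA190 of polymerase I, at -3.02, -2.37 and -2.33. The rises were MAF1, the repressor of polymerase III, with 1492 and 1621 in SL 1 h and 1051 and 1101 in YPL, and RPC37. Neither rise passed without WT SL 1 h replicate 2 or without WT YPL replicate 1. Among regulators of ribosomal protein genes CRF1, a corepressor, rose by 2.84, and SFP1, FHL1, IFH1 and RAP1 rose by 0.52 to 0.84. Without WT YPL replicate 1, FHL1, IFH1 and RAP1 did not pass and 2 of the 9 genes of this list rose, and FHL1 and RAP1 did not pass without WT SL 1 h replicate 2 either. In the same list TOD6 and DOT6, repressors of the biogenesis genes, fell by 1.84 and 0.89.

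Messages for mitochondrial ribosomes, protein import and the energy chain fell. All 71 mitochondrial ribosomal protein genes fell, with a median of -2.34, and their share of reads was 0.313% and 0.323% in SL 1 h and 1.53% and 1.70% in YPL. MRPL4 had 154 and 195 in SL 1 h and 1855 and 2456 in YPL. Of 25 import genes 24 fell, SSC1, the matrix HSP70, to 5247 and 4936 in SL 1 h against 28859.6 and 30341 in YPL. TIM21 rose by 0.55, a call that did not hold without WT SL 1 h replicate 2 or WT YPL replicate 1. Of 35 respiratory chain and ATP synthase genes 29 fell, by a median of -0.82 over the list, less than the ribosomal proteins of the same organelle. CYC1, the main cytochrome c, had 2903 and 2444 in SL 1 h and 22878 and 23943 in YPL, and its paralog CYC7 did not pass at 0.22. The 2 rises were COX5B, the hypoxic form of cytochrome oxidase subunit 5, and NDE2, an external NADH dehydrogenase. HAP4, which activates respiratory genes, had 1784 and 1851 in SL 1 h and 5033 and 5581 in YPL.

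Most genes of lactate use and gluconeogenesis fell, with lactate at 2% in both media. Of 13 genes 9 fell and 4 rose, and their share of reads was 1.20% and 1.16% in SL 1 h and 2.53% and 2.48% in YPL. JEN1, the lactate permease, had 9297 and 8593 in SL 1 h and 44539 and 39606 in YPL. DLD1, the D-lactate dehydrogenase, fell by 1.61, while CYB2, the L-lactate dehydrogenase, had 23382 and 23272 in SL 1 h and 35879.8 and 31539 in YPL, a fall that did not pass without WT YPL replicate 1. PYC1 fell by 1.92 and PCK1 by 1.28. The rises were DLD3 by 2.09, ADY2, an acetate permease, by 0.86, MAE1 by 0.56 and MDH2 by 0.50, and under TMM scaling 2 of the 4 remained. MAE1 and MDH2 also did not pass without WT SL 1 h replicate 2, nor MAE1 without WT YPL replicate 1 and MDH2 without WT YPL replicate 2. Of 27 genes of glycolysis and fermentation 13 rose and 5 fell, with 9 rises under TMM scaling. PDC6, a minor pyruvate decarboxylase, had 11649 and 10578 in SL 1 h and 249.6 and 291 in YPL, and ENO1, an enolase, rose by 2.25 ± 0.21. HXK2, a hexokinase, fell by 3.05.

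Some isoenzyme pairs moved in opposite directions at steps of carbon and amino acid metabolism. Of 47 paralog pairs, most of them isoenzymes and a few of them factors, chaperones or carriers, 11 had 1 gene that rose and 1 that fell, 12 had both up, 5 had both down, and in 19 at least 1 gene did not pass. Over all genes 33.7% rose and 23.8% fell, so pairs of unrelated genes would also at times move in opposite directions. Whether 11 is more than such pairs would give was not tested, and the pairs were chosen with earlier results known. In the pentose phosphate pathway this held at 3 steps. TKL2, a transketolase, had 10093 and 12433 in SL 1 h and 1325 and 1051 in YPL, while TKL1, the main form in rich medium, had 1655 and 1625 in SL 1 h and 6518 and 7545 in YPL. Per kilobase, the mean level of TKL2 was 5505 in SL 1 h and 581 in YPL, against 803 in SL 1 h and 3442 in YPL for TKL1. GND2 and GND1, phosphogluconate dehydrogenases, moved by 3.19 ± 0.17 and -1.38 ± 0.17, and the transaldolases NQM1 and TAL1 by 2.92 ± 0.16 and -0.95 ± 0.16. In all 3 pairs the per-kilobase order in SL 1 h was the reverse of that in YPL. RKI1, ribose phosphate isomerase, which has no paralog in the list, had 74.4 and 47.0 in SL 1 h and 1939 and 1450.2 in YPL.

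In amino acid and one-carbon metabolism the exchanges separated compartments in part. BAT1, the mitochondrial branched-chain aminotransferase, had 4122 and 4501 in SL 1 h and 1090.4 and 1578 in YPL, while BAT2, the cytosolic form, had 933 and 1273 in SL 1 h and 5202 and 6345 in YPL. SHM2, the cytosolic serine hydroxymethyltransferase, rose by 2.03 ± 0.17, and SHM1, the mitochondrial form, fell by 0.68. CIT2, the peroxisomal citrate synthase, rose by 1.30 ± 0.19 and CIT1, the mitochondrial form, fell by 1.03. LEU4 and LEU9 moved by 0.56 ± 0.16 and -2.31 ± 0.22, URA10 and URA5 by 1.82 ± 0.18 and -1.40 ± 0.16, and CDC19 and PYK2 by 0.50 ± 0.17 and -1.09 ± 0.17. The rise of CDC19 did not pass under TMM scaling or without WT SL 1 h replicate 2 or WT YPL replicate 1. NDE2 and NDE1 moved by 2.68 ± 0.18 and -0.71 ± 0.17, and COX5B and COX5A by 1.38 ± 0.28 and -0.67 ± 0.19. COX5B stayed far below COX5A in level, at 267 per kilobase against 17168 in SL 1 h, and the fall of COX5A did not pass without WT SL 1 h replicate 1 or WT YPL replicate 2.

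**Figure D4:**
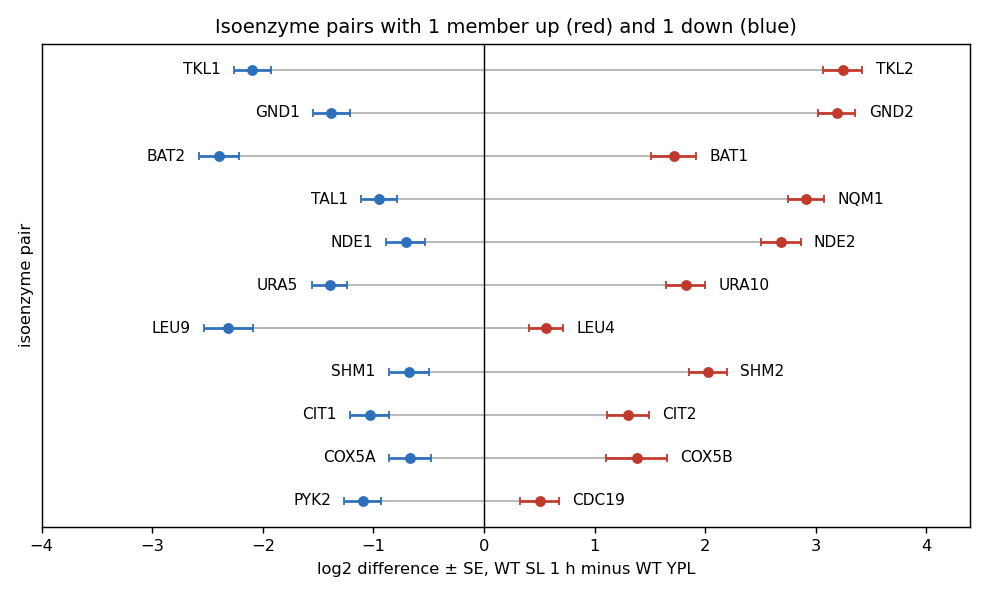
Log2 difference of WT SL 1 h minus WT YPL for both genes of the 11 pairs in which 1 gene rose and the other fell, with SE bars and a line joining each pair. TKL2 and TKL1 lie furthest apart, at 3.25 and -2.10.

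Of 14 copper genes 5 rose, 4 fell and 5 did not pass. The falls were uptake genes, and the largest rises were metallothionein genes. CTR1, the high-affinity copper transporter, had 169 and 154 in SL 1 h and 22229 and 21635 in YPL, and CTR3 had 243 and 211 in SL 1 h and 21449 and 18904 in YPL. The metalloreductases FRE1 and FRE7 fell by 3.83 and 5.11. These 4 were the falls with the deposited scaling, and 6 copper genes fell under TMM scaling. CUP1-1 and CUP1-2, tandem copies of the copper metallothionein that share reads, had 12293 and 13241 and 12256 and 13488 in SL 1 h, against 812 and 718 and 784 and 812 in YPL. The other metallothionein, CRS5, rose by 3.32 ± 0.24. MAC1, the activator of copper uptake, rose by 0.55, against the direction of the uptake genes, though not without WT SL 1 h replicate 2 or WT YPL replicate 1. The letters TTTGCTC, the core bound by Mac1, were found on either strand before 3 of the 14 copper genes (21.4%), against 8.67% of all promoters. The 3 were CTR1, FRE1 and the copper chaperone gene CCS1, whose log2 difference was 0.57. The R64 windows of CTR3 and FRE7 did not hold the word. R64 is the S288C genome, and the CEN.PK promoters of these cells were not searched. The CTR1 and FRE1 windows are shown because both genes fell, with capitals for the word on either strand.
CTR1: gacggtaaaatGAGCAAAaatggcacgatc
FRE1: ttttgaagtcgTTTGCTCtcttccatgctt
They lie at chrXVI:785886-785915 (plus) and chrXII:568460-568489 (plus) of R64.

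Iron genes were mixed, with 10 rises and 11 falls among 25. The siderophore transporter SIT1 fell by 2.54 and the mannoproteins FIT3 and FIT2 by 1.62 and 1.42, while FIT1 had 434 and 554 in SL 1 h and 171 and 172 in YPL. The iron-sulfur scaffold genes ISU2 and ISU1 rose by 1.60 and 1.13, and AFT2, an activator of iron genes, by 1.52, while AFT1, chosen after its value was seen, fell by 0.66, a call lost without WT SL 1 h replicate 1 or WT YPL replicate 2. Of 11 zinc genes 6 rose and 1 fell, and the activator ZAP1 rose by 1.52 ± 0.18. Phosphate genes mainly fell, 13 of 23, with 5 rises of which 1 held without WT SL 1 h replicate 2. GIT1, which imports glycerophosphoinositol, had 85.7 and 76.9 in SL 1 h and 2283 and 2429 in YPL. PHO84, the high-affinity phosphate transporter, fell by 3.62 and PHO89, its sodium-coupled counterpart, by 2.00. PHM8, a nucleotide phosphatase, rose by 2.51 ± 0.17. The word CACGTG, described above for sulfur genes that rose, was found before 16 of the 23 phosphate genes (69.6%). Pho4 can also bind this word, but no binding was measured.

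Membrane, wall and vitamin genes each held both directions. No phospholipid gene of 24 fell and 14 rose, INO1, inositol phosphate synthase, by 2.03 ± 0.16 and OPI3, the last methyltransferase of phosphatidylcholine synthesis, by 1.41 ± 0.16. CHO2, the gene missing in the mutant strain, had 4065 and 3129 in SL 1 h and 1888 and 1570.5 in YPL, a rise that did not pass without WT SL 1 h replicate 1. In the cho2Δ libraries of the same media it lay between 3.77 and 9.19. Under TMM scaling 13 phospholipid genes rose and 3 fell. Of 14 fatty acid genes 9 fell, OLE1, the desaturase, to 4322 and 3728 in SL 1 h against 12799 and 13712 in YPL, while 11 of 16 genes of peroxisomal beta-oxidation rose and none fell (1 fell under TMM scaling). At the wall PIR3 had 3076 and 2562 in SL 1 h and 166 and 138 in YPL, EXG1, a glucanase, rose by 2.50 ± 0.19, and SED1 had 63789.7 and 108318 in SL 1 h and 27899 and 45377 in YPL, with replicate 2 the higher in both media. FLO11, the adhesin, had 1113 and 1536 in SL 1 h and 6399.7 and 13719.8 in YPL. Of 17 thiamine genes 13 rose, THI4 to 1769 and 1641 in SL 1 h against 142 and 92.0 in YPL, and the 2 falls were SNZ2 and SNZ3, near-identical copies. The proton pump gene PMA1 did not pass at -0.11, while its minor paralog PMA2 rose by 3.31.

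Purine synthesis separated at inosine phosphate. Of 15 genes 9 rose and 4 fell, and the falls, IMD2, IMD3, IMD4 and GUA1, make guanosine phosphate from it. Among the rises ADE17, which acts at the last steps before inosine phosphate, went to 11852 and 10981 in SL 1 h against 1519.8 and 1235 in YPL, and ADE2 rose by 1.76 ± 0.19. IMD3 and IMD4, inosine phosphate dehydrogenases, fell by 2.99 and 3.25, and GUA1 had 511 and 483 in SL 1 h and 3779 and 4374 in YPL. ADE12 and ADE13 of the adenine branch rose by 0.80 and 0.81, ADE12 not without WT SL 1 h replicate 1 or WT YPL replicate 2. Among pyrimidine genes URA7, a CTP synthase, fell by 3.45 and FUR1, of uracil salvage, by 3.05. In one-carbon metabolism the glycine cleavage genes GCV1, GCV2 and GCV3 rose by 1.76, 1.74 and 0.89.

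Genes of recycling rose widely and modestly. Of 31 autophagy genes 26 rose and none fell (1 fell under TMM scaling), with a median of 1.12, and their share of reads was 0.393% and 0.413% in SL 1 h and 0.180% and 0.170% in YPL. ATG7 had 1987 and 1904 in SL 1 h and 532 and 411 in YPL. The nuclear and perinuclear ER receptor ATG39 had 2977 and 3042 in SL 1 h and 851 and 801 in YPL, and ATG15, the vacuolar lipase, rose by 1.91 ± 0.18. Vacuolar protease PRB1 rose by 1.00 ± 0.18, while PEP4, the protease that matures the others, did not pass at 0.30. AGGGG was found before 7 of the 7 vacuolar protease genes, of which 3 rose and 4 did not pass. Its share over all promoters is given above with the stress genes. GID10, a substrate receptor of the GID ubiquitin ligase, had 950.2 and 1086 in SL 1 h and 31.3 and 34.4 in YPL. Proteasome genes hardly moved, since 7 of 33 rose with the deposited scaling, 1 rose and 3 fell with TMM, 28 rose with quantile normalisation and none rose without WT SL 1 h replicate 1. The list's median was 0.27, against 0.18 over all genes. GGTGGCAAA, the element of Rpn4, was found on either strand before 81.8% of proteasome genes and 1.66% of all promoters. Of 22 TORC1 genes 11 rose and none fell, led by SLM4 of the EGO complex at 1.25 ± 0.17 and IML1 of the inhibiting SEACIT complex at 1.07 ± 0.19; 10 rose and 2 fell with TMM, and 7 rose without WT SL 1 h replicate 2.

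Cell cycle genes moved by small amounts. The G1 cyclins CLN2, CLN3 and CLN1 fell by 1.20, 0.96 and 0.88, and the mitotic cyclins CLB2 and CLB1 and the kinase CDC5 rose by 1.02, 1.00 and 0.99, so that 9 of 20 rose and 3 fell. Of 10 histone genes 8 fell, and 5 without WT SL 1 h replicate 2. HTB2 had 1261 and 1216 in SL 1 h and 4953 and 4526 in YPL. HTA2 had 623 and 312 in SL 1 h and 2247 and 1079 in YPL, with replicate 1 the higher in both media. Histone genes with near-identical coding regions can share reads, and mRNA selected by poly-A tails was measured.

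Position and gene structure differed between rises and falls of at least 2-fold. These shares are over genes matched to a coding sequence in R64, which were 773 of the rises, 865 of the falls and 5908 of all genes tested. Genes within 20 kb of a chromosome end made up 5.17% of matched rises, 1.85% of matched falls and 3.62% of all matched genes. Of 214 such genes 98 rose at any fold (45.8%), against 33.7% of all genes tested. Genes with a split coding sequence made up 2.72% of the matched rises, 12.3% of the matched falls and 5.37% of all matched genes. Outside the cytosolic ribosomal proteins, which are rich in introns, 228 split genes gave 73 rises and 43 falls at any fold (32.0% and 18.9%). Over all genes tested these shares were 33.7% and 23.8%. The 228 genes were not counted at 2-fold.

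The cho2Δ strain changed most of the same genes in its first hour. In it 1648 genes rose (25.2%) and 1612 fell (24.6%), each strain compared with its own YPL libraries. Of the 850 genes that rose at least 2-fold in wild type, 738 rose in cho2Δ, and of the 954 that fell, 928 fell. The difference between the strains was tested directly, as cho2Δ minus wild type. It passed for 236 genes (3.61%), of which 106 were more positive in cho2Δ (1.62%) and 130 more negative (1.99%). Among the genes called in wild type it passed for 218 (5.79%). Sulfur genes were frequent among the negative differences. All 11 sulfate assimilation genes and all 8 scavenging genes had negative differences that passed, beside 1.99% over all genes, so that wild type rose further. The negative count for sulfate assimilation was 10 or 11 under each alternative tried.

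For MET3, the cho2Δ libraries had 24668 and 24245 in SL 1 h and 2161 and 2812 in YPL, beside the 61704 and 63809 in SL 1 h and 333 and 378 in YPL of wild type. Wild type was thus higher after 1 h and lower before the switch. The difference was -4.15 for MET3, -3.33 for MET10, -3.29 for MET17 and -3.02 for MET5. MUP1 and SHM2 moved in opposite directions in the strains. MUP1 had 1135 and 1236 in SL 1 h and 2877 and 2593 in YPL in cho2Δ, against 11839 and 9007 in SL 1 h and 1566 and 1478 in YPL in wild type. SHM2 had 717 and 755 in SL 1 h and 1889 and 1945 in YPL in cho2Δ, a fall, where it rose in wild type. On the other side FDH1, a formate dehydrogenase, had 34273 and 36400 in SL 1 h and 1445 and 2102 in YPL in cho2Δ, against 3897 and 4364 in SL 1 h and 1447 and 1651 in YPL in wild type. FDH2, INO1 and DPA10 also differed, by 2.96, 2.58 and 2.85. The values of FDH1 and FDH2 may not be separate if reads match both. HXT6 and HXT7, near-identical hexose transporters, rose in cho2Δ by 1.42 and 1.43 and fell in wild type by 0.74 and 0.66, falls that did not pass without WT SL 1 h replicate 2.

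For the ribosome the same test depended on which libraries were kept. Of the 137 cytosolic ribosomal protein genes 54 had a positive difference that passed, with the fall in wild type the deeper, but the count was 94 with DESeq2, 88 with the replicate number as a block and 24 without a filter. It was 2 without cho2Δ SL 1 h replicate 1 or without cho2Δ YPL replicate 2, and 3 without WT SL 1 h replicate 2. It was 15 without cho2Δ SL 1 h replicate 2, 25 without cho2Δ YPL replicate 1 and 13 without WT YPL replicate 1, but 94 without WT SL 1 h replicate 1. GRE1 rose by 5.32 in cho2Δ and 5.41 in wild type and CTT1 by 5.08 in cho2Δ and 5.76 in wild type, and neither difference passed.

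**Figure D5:**
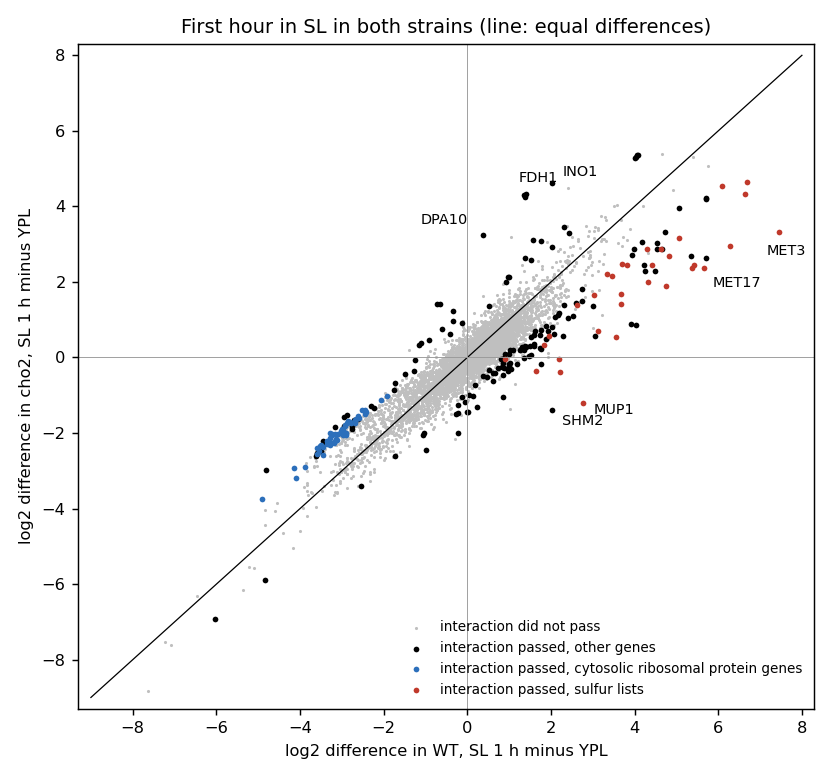
Log2 difference of SL 1 h minus YPL in cho2Δ on the vertical axis and in wild type on the horizontal, 1 point a gene, with a line of equal differences and large points where the difference between strains passed. Coloured sulfur genes lie below the line, with MET3 at 3.31 in cho2Δ and 7.46 in wild type, and the coloured cytosolic ribosomal protein genes lie just above it, below 0 in both strains.

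Some genes lay nearer their YPL values at 3 h than at 1 h, and others did not. Comparing wild type at 3 h with wild type at 1 h, 726 genes were higher (11.1%) and 1671 lower (25.5%); TMM scaling moved all differences by 0.19 and gave 1357 higher and 1304 lower. This comparison shares the 1 h libraries with the first, and values are given side by side. Of the 850 genes up at least 2-fold at 1 h, 367 were lower at 3 h and 80 higher. Of the 954 down at least 2-fold, 380 were higher at 3 h and 120 lower. Genes chosen on their 1 h values tend to move back in this comparison by construction, so these counts do not show a return. They were not counted under TMM scaling. All 11 sulfate assimilation genes were lower at 3 h than at 1 h. MET3 had 333 and 378 in YPL, 61704 and 63809 at 1 h and 13338 and 15089.6 at 3 h. MET8 and CYS3 were close to their YPL values by 3 h, with CYS3 at 1418 and 1798 in YPL, 12408 and 15459 at 1 h and 1419 and 1296 at 3 h. PDC6, in contrast, had 6463 and 7402 at 3 h, 0.68 lower than at 1 h on the log2 scale.

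The cytosolic and mitochondrial translation genes parted after 1 h. Over all genes 11.1% were higher at 3 h than at 1 h and 25.5% lower, with a median log2 difference of -0.21. That median was 1.15 for the cytosolic ribosomal protein list and -0.15 for the mitochondrial one. By the median, the mitochondrial list thus did not fall further than genes at large. Of the cytosolic ribosomal protein genes 130 of 137 were higher at 3 h than at 1 h and of the biogenesis genes 75 of 81, whereas of the 71 mitochondrial ribosomal protein genes none was higher and 12 were lower. With TMM scaling 6 were higher, with DESeq2 5 and with quantile normalisation 7, and 2 were without WT SL 3 h replicate 1. The 12 lower genes numbered 7 with DESeq2 or without WT SL 1 h replicate 1, and 20 without either cho2Δ SL 3 h library, which enter the shared estimate of spread. Without either of those libraries 1 was higher. RPL3 had 23623 and 18769.8 in YPL, 1074 and 743 at 1 h and 3928 and 3006 at 3 h, and MRPL4 had 1855 and 2456 in YPL, 154 and 195 at 1 h and 70.9 and 34.2 at 3 h. Cell cycle genes were lower at 3 h in 17 of 20 cases. PCL1, a G1 cyclin, had 671 and 834 in YPL, 866 and 1269 at 1 h and 110 and 177 at 3 h, and CLB2 had 291 and 243 in YPL, 552 and 532 at 1 h and 149 and 131 at 3 h. SRL1, a cell wall mannoprotein, did not pass at 1 h and was lower at 3 h by 3.97.

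Several genes turned round. PHO84 had 10854 and 10823 in YPL, 1005 and 767 at 1 h and 8183 and 6231 at 3 h. RKI1 had 560 and 718 at 3 h after 74.4 and 47.0 at 1 h. FAT3, of fatty acid uptake, had 5179 and 4688 in YPL, 634 and 893 at 1 h and 5083 and 7582 at 3 h, and GFD2 had 415 and 646 in YPL, 25.8 and 16.2 at 1 h and 164 and 157 at 3 h. ADY2 went further in its first direction, with 3307 and 2712 in YPL, 5285 and 5631 at 1 h and 46035 and 41869.7 at 3 h. CTR1 and ARO10 did neither, with CTR1 at 129 and 131 and ARO10 at 124 and 165 at 3 h. The wild-type 3 h replicate 2 library was the shallowest of the series, with 3166868 reads.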

How the data were processed

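Poly-A RNA of 12 libraries was sequenced with a stranded kit, per the labels' protocols. The authors deposited 1 table of signal values, gene counts divided by a size factor for each library, and Bowtie, DESeq and the sacCer2 build are named in the submitters' processing notes. How reads were counted, whether by strand, and with which annotation is not given in the sources used here. All values came out as whole reads within 0.01 of a read once divided by the library's smallest step (100% of values), which gives the depths and the count tests. Low-count genes are the least precise, and intervals cover counting and replicate spread only.

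Genes with a value of at least 10 in 2 libraries entered limma 3.58.1 (R 4.3.3) on log2(value + 1), with trend, 1 mean for each of 6 groups, 6 residual degrees of freedom and Benjamini-Hochberg adjustment. Adding 1 understates the fold of low genes. Of the listed genes 6006 matched RefSeq R64 by locus tag and 679 did not. Coding sequences at least 95% identical over at least 50% of their length, by blastn 2.17.0, were called near-identical, and this held for 340 genes. Sequences come from RefSeq R64, the S288C genome, by its own annotation, and promoters are 500 bases before the start codon. No coordinates of sacCer2 were used. RPP1, which is not a ribosomal protein gene, was taken out of that list.

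The 69 lists, 47 paralog pairs, motifs and named genes were chosen with earlier results of these data known. Named genes were the 15 largest rises and 15 largest falls with a mean of at least 50 and separate libraries, members of lists of at most 16, up to 4 in each direction, the highest and up to 4 minority members of larger lists, genes of pairs, the 10 highest values of each medium, and the 6 largest each way for the strain and 3 h tests. A gene that this rule names is not reported here. Alternatives were pseudocount 5, no filter or a filter at 50, TMM, quantile normalisation, a replicate block, only the groups compared, edgeR 4.0.16 with either scaling, DESeq2 1.42.0, and leaving out each library.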

Additional observations from a re-analysis of the deposited data

Results flagged for a closer look

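The first-hour difference was set between the strains for every gene, as cho2Δ minus wild type, and the 6 largest in each direction that passed the interaction test of limma are given here. The positive ones were FDH2 at 2.96 and FDH1 at 2.93, both formate dehydrogenase genes, DPA10 at 2.85, INO1 at 2.58, and the near-identical HXT6 at 2.15 and HXT7 at 2.09. FDH2 overlaps another annotated frame. How reads that would match both FDH1 and FDH2 were counted is not given, so the values of these genes may not be separate. The negative ones were MET3 at -4.15, MUP1 at -3.97, SHM2 at -3.41, MET10 at -3.33, MET17 at -3.29 and MET5 at -3.02. MUP1, SHM2, HXT6 and HXT7 passed in both strains and in opposite directions. No cause of these differences was tested.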

How the results depend on the processing

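The count of genes called in wild type, 3766, ran from 3706 to 4246 over the settings that kept all libraries and from 3023, without WT SL 1 h replicate 2, to 4271 when each library was left out; edgeR on the recovered reads called 3826 and DESeq2 4064. TDH3, a rise that did not pass under TMM scaling, was -0.0151 with quantile normalisation, and the cause was not tested. The test between strains, 236 genes, depended more on the setting, with 148 without a filter, 424 with TMM scaling, 452 with edgeR and TMM, 482 with quantile normalisation, 581 with only the groups compared and 651 with DESeq2. Leaving out each library gave 97 (without cho2Δ YPL replicate 2) to 419. Genes higher at 3 h, 726, numbered 1248 with quantile normalisation, 1357 with TMM scaling, 1362 with edgeR and TMM and 1407 with DESeq2, and 481 (without WT SL 1 h replicate 2) to 891 over left-out libraries. Genes lower at 3 h, 1671, numbered 874 (without WT SL 1 h replicate 2) to 2263. Where 1 library of a group was left out, the lone library was taken to vary like the other groups. With the replicate number as a block the fit called 3842 genes in wild type, 2262 rises and 1580 falls, 315 between strains, and 758 higher and 1756 lower at 3 h. Same-numbered libraries of WT YPL and WT SL 1 h, the groups of the main comparison, deviated together (r = 0.54 across genes). Those of other groups ran from -0.20 to 0.42. The pairing was not used in the main fit because the series text does not state one. The block fits 1 replicate effect shared by all 6 groups, so pairing of WT YPL with WT SL 1 h alone was not tested. The shallowest library, WT SL 3 h replicate 2, held 3166868 reads.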
